A study of Mus musculus with 13 samples.

Results

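The transcripts described here are those of 10 genes of the hypoxia-inducible factor (HIF) pathway, chosen by symbol from the 24421 genes in the 2 RNA-seq count tables. They are 5 regulators (*Hif1a*, *Epas1*, *Vhl*, *Egln1*, *Egln3*) and 5 genes that low oxygen induces in many cells (*Ndufa4l2*, *Bnip3*, *Vegfa*, *Ankrd37*, *Car9*), and all 10 had reads. The list was drawn up with the +dox against −dox values of these libraries known, so for the 10 genes these values are a description. Counts of test calls among them are given further on, and nothing is read from those counts. The cells were F1-2.1 mouse embryonic stem (ES) cells from a CAST/Ei x 129/Sv/Jae cross, grown on γ-irradiated embryonic fibroblast feeders in medium with LIF. All carried a Tet-on transgene for CTCF S224E, in which glutamate replaces a serine to mimic its phosphorylation, and endogenous CTCF was still present. Doxycycline (dox), which turns the transgene on, was given at 1 μg/mL over 6 days to cells of a single clone, A2, and 2 biological replicates were sequenced with dox (+dox) and 2 without (−dox). Cells that received dox but carry no transgene are not part of the data used, so effects of S224E and of dox itself cannot be told apart in any comparison. RNA-seq of cells with a wild-type CTCF or S224A transgene is not among them either. Effects of the substitution can thus not be told apart from those of added tagged CTCF, or of EGFP, which the vector co-expresses. The p-values measure the spread between these libraries.

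HIF is a transcription factor made of an oxygen-sensitive alpha subunit, encoded by *Hif1a* or *Epas1*, and a stable partner encoded by *Arnt*. Where oxygen is plentiful, prolyl hydroxylases of the Egln family modify the alpha subunit, which the Vhl protein then recognises for ubiquitination and degradation. In low oxygen the alpha subunit persists, binds hypoxia response elements and raises transcripts for glycolysis, blood vessel growth and mitochondrial turnover, and also those of *Egln1* and *Egln3*, which closes a feedback loop. This control acts mainly on the alpha subunit protein, which RNA-seq does not measure.

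Counted reads per library ran from 22899107 to 30206085. *Ctcf*, endogenous and transgenic reads together, stood at 327 and 329 CPM (reads per 1000000 after TMM scaling) with dox and at 295 and 304 without. The ES cell label was checked on 8 marker genes led by *Pou5f1* and *Esrrb*, which were all detected. Their summed level was 4752 and 5447 CPM with dox and 4350 and 4728 CPM without. Marker lists of other cells also differed between the conditions. For 12 fibroblast markers, led by *Fbln2* and *Col1a1*, the sums were 1135 and 510 CPM with dox and 400 and 436 without, so that +dox replicate 1 stood apart. The 10 primitive streak markers, led by *T* and *Eomes*, summed to 39.1 and 39.0 CPM with dox and to 164 and 189 without. Neither set had a gene at 0 in every library, and the part of these cells in the values below was not tested. In such bulk RNA, fewer cells of a type and less RNA per cell cannot be told apart.

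The 300 bases before the start of each gene were searched for the core of the hypoxia response element, ACGTG or GCGTG on either strand, in mm9. At least 1 match stood in 47.8% of 23963 such windows over the tables, so the letters alone are common. It stood in 6 of the 10 genes, in 8 of 15 other HIF regulators (53.3%), in 36 of 43 other hypoxia-induced genes (83.7%) and in 14 of 18 glycolysis and transport genes (77.8%). *Epas1*, *Vhl*, *Ndufa4l2* and *Vegfa* had no match, which says only that these letters are not in this window. The matches in *Car9* and 1 of 3 in *Ankrd37* lie in annotated exons and are not printed. The other 5 genes have matches before their annotated exons, and the stretches of the NCBIM37 (mm9) reference that hold these are shown for that reason, 5′ to 3′ on the strand of the gene, with each match in capitals and overlapping matches run together.
Hif1a, chr12:75008707-75008800, plus strand: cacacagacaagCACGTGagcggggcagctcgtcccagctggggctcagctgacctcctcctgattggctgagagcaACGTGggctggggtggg
Egln1, chr8:127473206-127473292, minus strand: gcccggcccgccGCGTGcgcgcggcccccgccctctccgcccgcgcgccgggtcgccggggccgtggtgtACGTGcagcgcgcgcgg
Egln3, chr12:55305074-55305102, minus strand: tgtgcatctcagACGTGagatccaggttt
Bnip3, chr7:146101208-146101318, minus strand: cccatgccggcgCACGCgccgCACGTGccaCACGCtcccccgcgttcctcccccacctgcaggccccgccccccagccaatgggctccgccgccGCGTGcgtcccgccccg
Ankrd37, chr8:47085340-47085457, minus strand: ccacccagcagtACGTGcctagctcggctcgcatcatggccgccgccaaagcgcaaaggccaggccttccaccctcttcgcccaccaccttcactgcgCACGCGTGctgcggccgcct

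The 2 alpha subunits, which had the most reads of the 10 genes, differed in opposite directions. *Hif1a* (chromosome 12, 75008854 to 75048541, plus strand) stood at 228 and 186 CPM in +dox replicates 1 and 2 and at 236 and 229 CPM in −dox replicates 1 and 2. The ranges did not overlap, but +dox replicate 1 lay close to both −dox libraries, and the log2 fold change (+dox over −dox) was -0.17 with a standard error (SE) of 0.11 from edgeR's fit. *Epas1* (chromosome 17, 87153204 to 87232750, plus strand), whose product is the alpha subunit best known from endothelium, stood at 216 and 228 CPM with dox and at 146 and 168 CPM without. Both +dox libraries were above both −dox libraries, and the log2 fold change was 0.50 (SE 0.10), with 0.57 within replicate 1 and 0.44 within replicate 2. Of 8 endothelial markers, all were detected and 3 (*Cdh5*, *Cldn5* and *Emcn*) had a mean under 1 CPM, while *Tek* (7.20 to 9.13 CPM), *Esam* (2.49 to 5.78 CPM) and *Tie1* (1.73 to 3.73 CPM) stood above it and *Eng* and *Pecam1* led. *Emcn* stood at 1.87 CPM in +dox replicate 1 and at 0.07 to 0.16 CPM in the other libraries. The summed level of these 8 genes was 247 and 267 CPM with dox and 203 and 219 CPM without, and its part in the *Epas1* values was not tested. The 8 genes did not share a direction, as 5 had a log2 fold change above 0 and 3 one below. *Eng* was higher with dox (142.3 and 155.1 CPM, against 110.5 and 112.4 CPM without), and the groups of *Pecam1* overlapped. *Tie1* was lower with dox (1.73 and 1.93 CPM, against 3.73 and 2.63 CPM without).

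*Vhl* (chromosome 6, 113574015 to 113581627, plus strand), the substrate receptor of the ubiquitin ligase, stood at 22.3 and 26.6 CPM with dox and at 28.7 and 28.5 CPM without. Its ranges did not overlap, but the log2 fold change of -0.22 (SE 0.15) was -0.36 in replicate 1 and -0.10 in replicate 2, and the 95% counting interval of the ratio in replicate 2 ran from 0.838 to 1.04. A pseudogene of *Vhl* is annotated, and reads that fit both equally would be missing from counts of uniquely mapped reads.

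*Egln1* and *Egln3* were lower with dox, and *Egln2*, the other HIF prolyl hydroxylase, was not. *Egln2*, which is not among the 10 genes and is named here after its values were seen, stood at 117 and 111 CPM with dox and at 94.2 and 86.9 CPM without, a log2 fold change of 0.33 (SE 0.10) that did not pass the test (adjusted p-value 0.1 from edgeR). *Egln1* (chromosome 8, 127432487 to 127473154, minus strand), the main oxygen sensor of the family, stood at 30.1 CPM in each +dox library and at 45.1 and 67.7 CPM in −dox replicates 1 and 2. The 2 +dox libraries were nearly alike while the −dox libraries differed from each other by 0.59 on the log2 scale, and the log2 fold change was -0.90 (SE 0.17). *Egln3* (chromosome 12, 55279968 to 55304861, minus strand), the member of the family with the strongest induction in low oxygen in many cells, stood at 24.6 and 29.6 CPM with dox and at 83.1 and 132 CPM without. The mean was 27.1 ± 3.56 CPM with dox and 107 ± 34.3 CPM without (SD, n = 2), which is 3.96-fold lower with dox, and the log2 fold change was -1.98 (SE 0.19). From 553 reads against 2538 in replicate 1 and 676 against 3301 in replicate 2, the ratio of +dox to −dox was 0.296 (95% counting interval 0.269 to 0.324) and 0.225 (0.207 to 0.245). The intervals cover counting error only, as reads are not independent molecules.

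Among the hypoxia-induced genes, *Ndufa4l2* differed most. It (chromosome 10, 126951995 to 126954210, plus strand) encodes a mitochondrial protein that resembles a subunit of cytochrome oxidase and is a known HIF target. It stood at 9.82 and 6.70 CPM with dox and at 46.1 and 44.8 CPM without, from 221 and 153 reads against 1409 and 1124. Every −dox value was thus more than 4 times every +dox value, and the −dox libraries differed from each other by only 0.04 on the log2 scale. The log2 fold change was -2.46 (SE 0.18), with -2.22 in replicate 1 and -2.73 in replicate 2, a mean 5.50-fold lower with dox. In the GENCODE annotation of mm9, 14 of its exon bases overlap *Shmt2* on the opposite strand, and *Shmt2*, at 317 to 346 CPM, had a log2 fold change of -0.10 (SE 0.08).

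*Bnip3* (chromosome 7, 146082519 to 146101189, minus strand), which encodes a mitochondrial outer membrane protein that marks mitochondria for autophagy, stood at 15.6 and 13.4 CPM with dox and at 33.6 and 38.8 CPM without. The groups lay well apart, and the log2 fold change was -1.32 (SE 0.16), with -1.11 and -1.53 in replicates 1 and 2. *Vegfa* (chromosome 17, 46153943 to 46169326, minus strand), the main growth factor for endothelium, stood at 32.1 and 28.8 CPM with dox and at 45.4 and 72.4 CPM without. Its 2 −dox libraries differed by 0.67 on the log2 scale, so that the log2 fold change of -0.95 (SE 0.19) was made up of -0.50 in replicate 1 and -1.33 in replicate 2. The counts of *Vegfa* were listed under a different RefSeq transcript in each table, with the same position and exon length. *Ankrd37* (chromosome 8, 47082262 to 47085204, minus strand), an ankyrin repeat gene known as a HIF target, stood at 6.17 and 6.09 CPM with dox and at 11.98 and 17.6 CPM without, a log2 fold change of -1.27 (SE 0.22). The +dox libraries were again nearly alike and the −dox libraries apart. In the same annotation, 349 of its 1403 exon bases overlap *Lrp2bp* and 57 overlap *Ufsp2*, both on the opposite strand. *Lrp2bp* had at most 7 reads in a library, and *Ufsp2* stood at 14.7 to 18.1 CPM with a log2 fold change of -0.16 (SE 0.18). In *Hif1a*, 330 of 5772 exon bases overlap the opposite-strand gene *Gm15283*. The library kit was directional, but how strand was handled in the counting is not given in the sources used here.

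*Car9* (chromosome 4, 43519898 to 43526597, plus strand), which encodes a carbonic anhydrase of the cell surface and is a widely used marker of hypoxia, was close to the limit of detection. It had 13 and 9 reads with dox and 13 and 8 without, which is 0.58, 0.39, 0.43 and 0.32 CPM, and the groups overlapped. In the annotation, 214 of its 2304 exon bases overlap *Gm12454* on the opposite strand, so reads of that gene could be among these few if strand was not used. A difference of *Car9* was not detectable at this depth, as the ratio of +dox to −dox had a 95% counting interval of 0.579 to 3.18 in replicate 1 and of 0.423 to 3.68 in replicate 2.

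**Figure D1:**
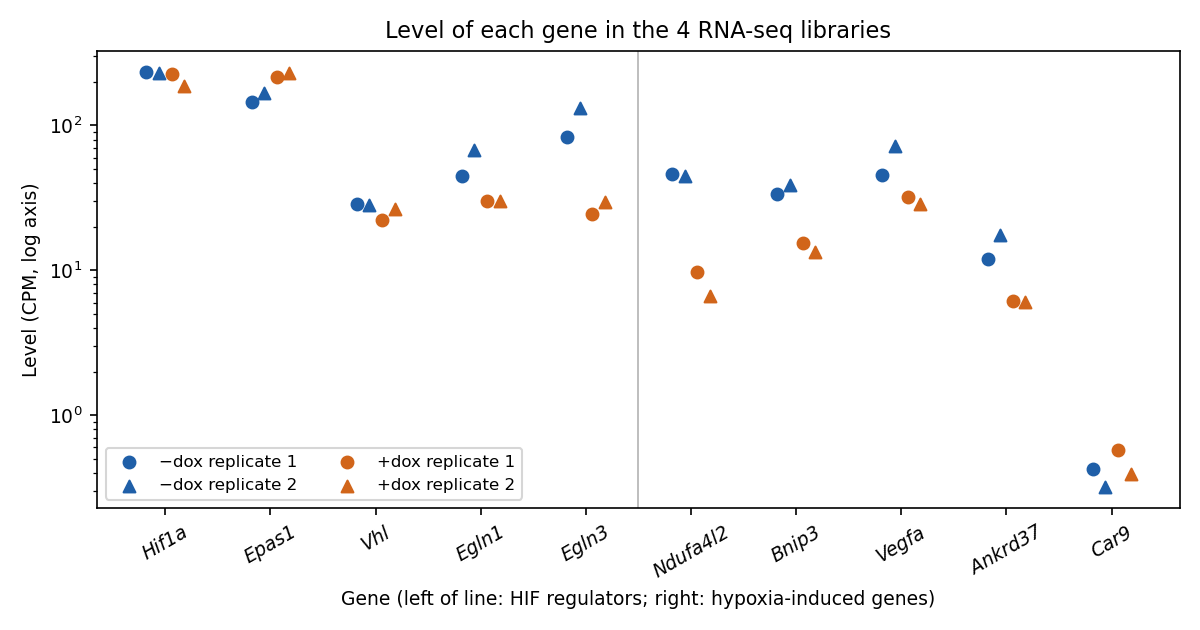
Level of the 10 genes (x axis) in CPM on a log axis (y axis), with 1 point per library, −dox in blue and +dox in orange, circles for replicate 1 and triangles for replicate 2. The orange points of *Egln1*, *Egln3*, *Ndufa4l2*, *Bnip3*, *Vegfa* and *Ankrd37* all lie below the blue ones, those of *Epas1* lie above, and *Car9* is under 1 CPM in every library.

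Across the 10 genes, 8 had both +dox libraries below both −dox libraries, where 23.7% of all 20044 genes tested did, *Epas1* had both above (23.3% of all genes), and *Car9* overlapped. Their median log2 fold change was -0.93, against 0.01 over all genes tested. edgeR's quasi-likelihood test called 3 of the 10 lower at an adjusted p-value under 0.01 (*Egln3*, *Ndufa4l2* and *Bnip3*), where 0.519% of all genes were called lower, and 0 higher (0.0798% of all genes). DESeq2 called 6 lower and 1 higher, *Epas1*, where it called 1.86% of 13826 genes lower and 0.853% higher. A fit that leaves out 1 library has a lone sample in that condition, which is assumed to vary like the 2 libraries of the other condition. Without −dox replicate 1 or without −dox replicate 2 edgeR called 0 of the 10 and 0 genes over the whole table (0.0%). Without +dox replicate 1 it called 6 of the 10 lower and 1 higher, where 3.56% of all genes were called lower and 1.51% higher, and without +dox replicate 2 again 6 lower and 1 higher, where 1.81% were called lower and 2.62% higher. Because the genes were chosen with this contrast known, nothing is read from these counts. The median within replicates was -0.54 in replicate 1 and -1.25 in replicate 2. *Egln1*, *Egln3*, *Bnip3*, *Vegfa* and *Ankrd37* each differed more in replicate 2, where their −dox library had the higher level. Without +dox replicate 1, the library with the highest fibroblast marker sum, the median was -0.97, and without +dox replicate 2 it was -0.89. Without −dox replicate 1 it was -1.21 and without −dox replicate 2 it was -0.58. The signs of all 10 genes stayed as they were in each of these 4 fits. Where the groups of a gene do not overlap, leaving out 1 library could hardly change its sign, so this adds no support.

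**Figure D2:**
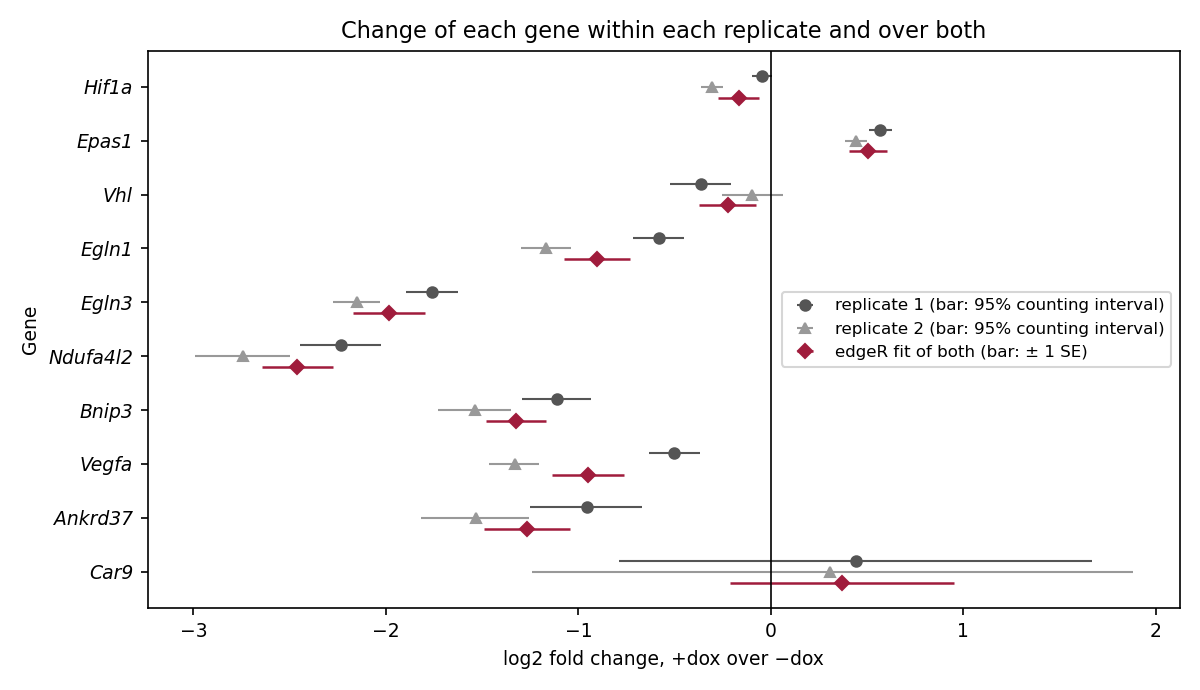
log2 fold change, +dox over −dox (x axis), of the 10 genes (y axis) within replicate 1 (dark circles) and replicate 2 (light triangles), with 95% counting intervals, and from edgeR's fit of both (red diamonds, ± 1 SE). Values of edgeR's fit run from -2.46 for *Ndufa4l2* to 0.50 for *Epas1*, and the intervals of *Car9* span 0 widely.

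Scaled to exon length, the genes formed a different order with and without dox. Without dox, *Hif1a* (48.7 CPM per kb), *Ndufa4l2* (47.6), *Egln3* (40.2) and *Epas1* (29.4 CPM per kb) led, and in that order no neighbours among these 4 had separate replicate ranges. *Bnip3* followed at 20.7 CPM per kb, below the range of *Epas1*. Its range overlapped that of *Vegfa*, and *Vegfa*, *Ankrd37* and *Egln1*, at 16.03 to 16.7 CPM per kb, overlapped each other, *Vhl* stood below them at 10.5 CPM per kb and *Car9* last at 0.19 CPM per kb. With dox, *Hif1a* (43.4 CPM per kb) and *Epas1* (41.7 CPM per kb) overlapped and stood alone at the top. *Egln3*, *Vhl*, *Vegfa*, *Ndufa4l2*, *Egln1* and *Bnip3* then lay between 8.27 and 10.2 CPM per kb, each overlapping the next. The level per length of *Ankrd37* was 6.83 CPM per kb, below the range of *Bnip3*, and that of *Car9* was 0.25 CPM per kb.

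**Figure D3:**
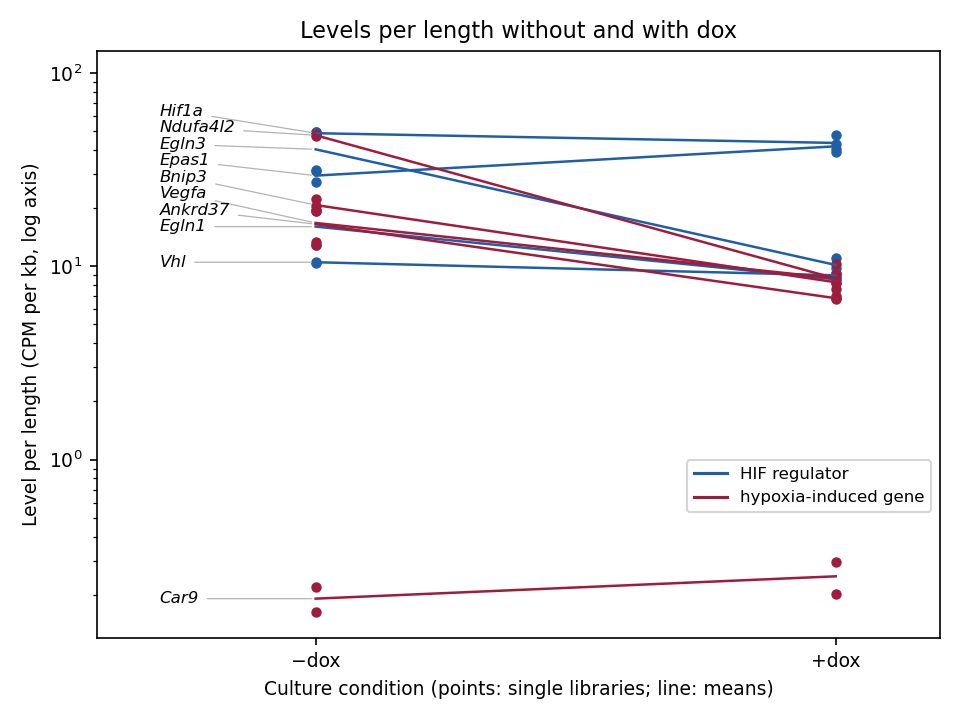
Level per length in CPM per kb of exon on a log axis (y axis) without and with dox (x axis), with points for libraries and lines between the means, HIF regulators in blue and hypoxia-induced genes in red. *Ndufa4l2* and *Egln3* drop from the group of *Hif1a* (40.2 to 48.7 CPM per kb without dox) to the cluster near 8 to 10 CPM per kb with dox.

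The profile of *Ndufa4l2*, which had the largest change of the 10, was compared with all genes of at least 1 CPM by the Euclidean distance of centred log2 CPM over the 4 libraries. The 5 nearest were *Grin1*, *Krt8*, *Actc1*, *Spon1* and *Fgf8*, at distances of 0.24 to 0.32. Their log2 fold changes ran from -2.78 (*Actc1*) to -2.28 (*Spon1*). *Fgf8* is also on the list of primitive streak markers. With 4 libraries, any gene with a change of this size and close replicates comes near.

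The other genes of the pathway were taken from lists of textbook regulators and targets that hold none of the 10 genes. These lists too were drawn up with earlier results of these data known. Their calls and p-values therefore describe these libraries and are not an independent test of the pathway. Of 15 other regulators, all tested, edgeR's quasi-likelihood test and DESeq2 each called 0 at an adjusted p-value under 0.01. Of all genes, edgeR called 0.519% lower and 0.0798% higher, and DESeq2 1.86% lower and 0.853% higher. In edgeR 4 had an unadjusted p-value under 0.05, 1 of them lower, where 3566 of all 20044 genes did, 1867 of them lower. Their median log2 fold change was -0.04. The most abundant were *Gnb2l1*, a ribosomal scaffold protein that also binds the alpha subunit, at 1147 and 1197 CPM with dox and 1012 and 1035 CPM without, and the coactivators *Ep300* and *Crebbp*. *Ep300* stood at 380 and 319 CPM with dox and 389 and 386 CPM without, and *Crebbp* at 170 and 158 CPM with dox and 140 and 139 CPM without. *Arnt2*, named here after its values were seen, stood at 25.6 and 15.3 CPM with dox and at 29.3 and 21.9 CPM without. Its groups overlapped, and its log2 fold change was -0.32 (SE 0.22).

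Among 43 other hypoxia-induced genes, 5 fell with dox and 0 rose (edgeR, adjusted p-value under 0.01), where 0.519% of all genes were called lower. In all, 34 had a log2 fold change below 0, where 9866 of all 20044 genes did. The median was -0.43 (-0.19 within replicate 1 and -0.59 within replicate 2), and 28 had no overlap and were lower, against 23.7% of all genes. *Ndrg1*, a stress-induced gene of cell differentiation, stood at 44.1 and 35.3 CPM with dox and at 89.5 and 123 CPM without, and fell by 1.42 on the log2 scale (SE 0.16, adjusted p-value 7.37e-04 from edgeR). *Flt1*, which encodes a receptor of Vegfa, stood at 5.42 and 3.15 CPM with dox and at 15.6 and 19.8 CPM without, and fell by 2.04 (SE 0.26, adjusted p-value 0.00179 from edgeR). Both had their +dox libraries well below their −dox libraries. *Bhlhe40*, a transcriptional repressor, fell by 1.11 on the log2 scale, from a mean of 166 ± 6.92 CPM without dox to 77.2 ± 20.3 CPM with dox (SD, n = 2, adjusted p-value 0.00221 from edgeR). *Ddit4*, an inhibitor of mTOR signalling that p53 also induces, fell by 0.82 (adjusted p-value 0.00332 from edgeR), and *Pdk1*, the kinase that keeps pyruvate out of mitochondrial oxidation, by 0.75 (adjusted p-value 0.00546 from edgeR). These 5 genes belong to 4 groups of the list, of which feedback and transcription had 2 of 11, mitochondria 1 of 6, secreted and vascular genes 1 of 12, and storage, lipid, pH and iron 1 of 8. The secreted and vascular genes had a median of 0.09 within replicate 1 and of -0.76 within replicate 2.

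Of the remaining abundant genes of these groups, several were lower without passing the threshold. *Ak4*, an adenylate kinase of mitochondria, had a log2 fold change of -0.88 (SE 0.15, adjusted p-value 0.0115 from edgeR), and *Fam162a*, a mitochondrial protein, one of -0.56 (SE 0.12, adjusted p-value 0.0338 from edgeR). *Cox4i2*, a subunit of cytochrome oxidase named here after its values were seen, had 2 and 3 reads with dox and 41 and 22 reads without, a log2 fold change of -3.28 (adjusted p-value 0.0177 from edgeR). The secreted hormone *Stc2* had -1.09 (SE 0.20, adjusted p-value 0.0181 from edgeR). *Tfrc*, the transferrin receptor, had -0.50 (SE 0.12), and the histone demethylase *Kdm4c* had -0.31 (SE 0.11). Of 6 genes for collagen and the endoplasmic reticulum, 0 passed the test, where 0.519% of all genes were called lower and 0.0798% higher. In edgeR 5 of the 6 had an unadjusted p-value under 0.05, 4 of them lower. Of all 20044 genes 3566 did, 1867 of them lower. *P4ha1* and *Plod2*, which hydroxylate collagen, had log2 fold changes of -0.73 (SE 0.18) and -0.44 (SE 0.13). Other genes did not share the direction. The lipase inhibitor *Angptl4* had 0.10 (SE 0.13). *Kdm3a*, a histone demethylase, had 0.08 (SE 0.09), with 0.18 in replicate 1 and -0.03 in replicate 2. *Hmox1*, which degrades haem, had 0.18 (SE 0.18), with 0.36 in replicate 1 and -0.07 in replicate 2. The groups of *Kdm3a* and of *Hmox1* overlapped. *Hmox1* stood at 205 and 124 CPM in +dox replicates 1 and 2 and at 160 and 130 CPM without dox. *Lox*, which crosslinks collagen, stood at 84.9 CPM in +dox replicate 1 and at 18.1, 21.4 and 14.2 CPM in +dox replicate 2 and −dox replicates 1 and 2. The library where it was high, +dox replicate 1, also had the highest fibroblast marker sum, 1135 CPM, and a link was not tested.

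Of 18 genes of glycolysis and sugar or lactate transport that HIF induces, 5 fell and 0 rose (edgeR, adjusted p-value under 0.01, against 0.519% of all genes called lower). A log2 fold change below 0 was found in 17, where 9866 of all 20044 genes had one. The median was -0.30 (-0.27 within replicate 1 and -0.42 within replicate 2). *Slc16a3*, the lactate exporter of glycolytic cells, stood at 118 and 101 CPM with dox and at 247 and 266 CPM without, and fell by 1.23 on the log2 scale (SE 0.10, adjusted p-value 1.12e-04 from edgeR). *Aldoc*, an aldolase, stood at 5.91 and 5.69 CPM with dox and at 16.9 and 18.1 CPM without, and fell by 1.59 (SE 0.19, adjusted p-value 0.00127 from edgeR). In both, replicates of a condition lay close together. *Pfkfb3*, which makes an activator of phosphofructokinase, fell by 0.85, the glucose transporter *Slc2a3* by 0.71 and the triose phosphate isomerase *Tpi1* by 0.58 (adjusted p-values 0.00397, 0.00364 and 0.00636 from edgeR). The most abundant enzymes differed less. *Pkm*, pyruvate kinase, stood at 2348 and 2223 CPM with dox and at 2382 and 2278 CPM without, and *Aldoa* had a log2 fold change of -0.26 (SE 0.08, adjusted p-value 0.108 from edgeR).

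All 10 of these called genes were also called by DESeq2, which called 9 of the 43 and 7 of the 18, all lower. The log2 fold changes of these 10 were below 0 in each of the 4 fits that leave out a library. All 10 had both +dox libraries below both −dox libraries, so these signs were all but fixed in advance and add no support. With −dox replicate 1 or −dox replicate 2 left out, edgeR called 0 of the 10 and 0 of all genes. With +dox replicate 1 left out it called all 10, in all 15 of the 43 and 7 of the 18 (all lower), where 3.56% of all genes were called lower. With +dox replicate 2 left out it called all 10, in all 15 of the 43 (12 lower and 3 higher) and 6 of the 18 (all lower), where 1.81% were called lower and 2.62% higher. Reads of *Pgk1*, *Pgam1* and *Eno1*, which are in the list of 18, can fit near-identical copies equally. Such reads would be missing from counts of uniquely mapped reads, so the values of these genes are uncertain, and 0 of them was among the called genes.

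**Figure D4:**
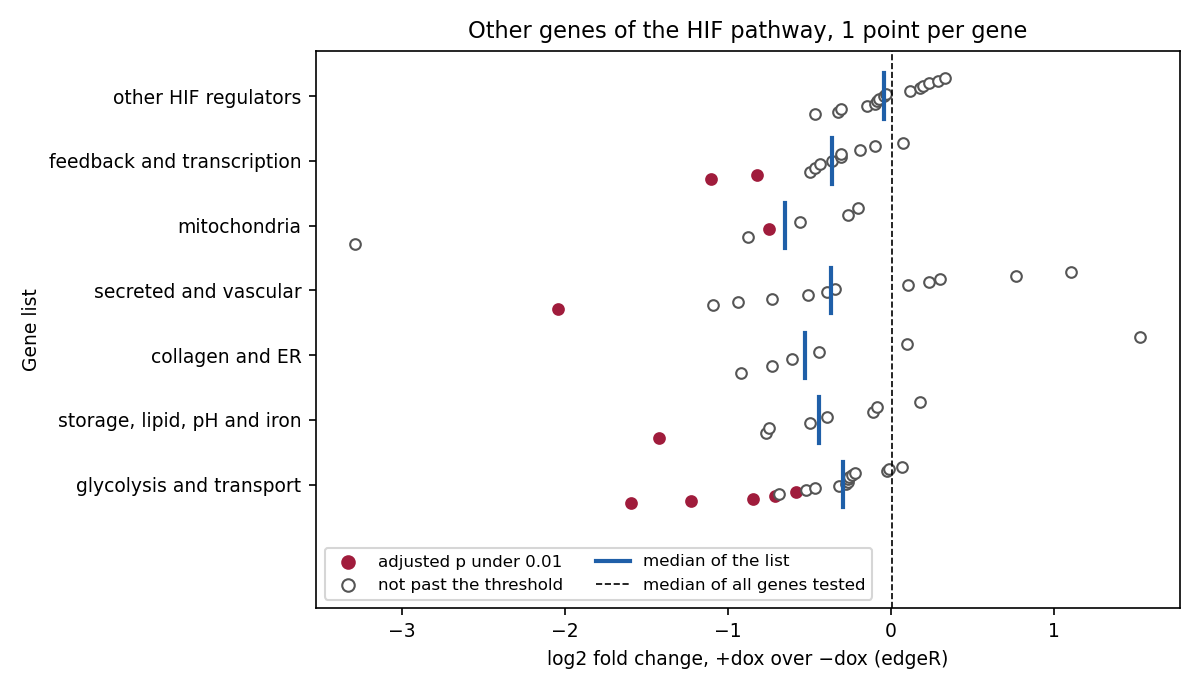
log2 fold change, +dox over −dox (x axis), of the 76 other genes of the HIF pathway by list (y axis), 1 point per gene, with filled points for the 10 genes at an adjusted p-value under 0.01 in edgeR, blue bars for the median of each list and a dashed line for the median of all genes. All filled points lie left of the line, none is among the other HIF regulators, and the list medians run from -0.65 (mitochondria) to -0.04 (other HIF regulators).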

How the data were processed

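RNA-seq reads of 4 libraries were trimmed by the authors with cutadapt, aligned to mm9 with TopHat2, cleared of PCR duplicates and tabulated with HOMER as uniquely mapped reads per gene over exons. The deposited values are raw counts, not normalized. Tool versions and strand use are not given in the sources used here. Libraries were grouped by their labels. The tables were joined by gene symbol (24421 genes, of which 547 have another transcript in the 2 tables), and 20044 genes with at least 1 count in 1 library were tested with edgeR 4.0.16 in R 4.3.3 (TMM, quasi-likelihood test with default settings, no block, Benjamini-Hochberg adjustment over all genes, threshold 0.01). DESeq2 1.42.0 was an alternative. The test was first run on simulated data. CPM use TMM-scaled library sizes, log2 CPM a prior count of 2, and ratios within a replicate exact 95% intervals (Clopper-Pearson). The replicates of a condition differed by more than counting noise (chi-square per degree of freedom 19.2 with dox and 13.2 without). The 10 genes and all lists were chosen with earlier results of these data known. Named from each list were the genes past the threshold and the 3 with the highest mean CPM, of which 1 gene is not reported here. Alternatives were other normalizations, filters, tests and thresholds, and leaving out each library. ChIP-seq and Hi-C samples were not used here.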

Additional observations from a re-analysis of the deposited data

How the results depend on the processing

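With 2 libraries per condition, counts of calls depend on the test. Over all genes edgeR called 120, DESeq2 375, filterByExpr left 11, adjusted deviances 0 (with 3566 genes at an unadjusted p-value under 0.05 in the default test) and a threshold of 0.05 gave 573. Of the 10 genes 3 were called, with 1 under filterByExpr (*Ndufa4l2*, against 11 of 15278 over all genes) and 0 with adjusted deviances. Where genes with unlike transcripts were dropped, 4 were called, against 141 of 19497 over all genes. With a replicate block 6 were called lower and 1 higher, against 786 of 20044 over all genes. As the 10 genes were chosen with this contrast known, nothing is read from these counts. Of the 43 other hypoxia-induced genes 5 were called, with 9 in DESeq2, 0 with filterByExpr, 0 with adjusted deviances and 11 at 0.05. Of the 18 glycolysis and transport genes 5 were called, with 1 under filterByExpr (*Slc16a3*) and 0 with adjusted deviances. Replicate numbers mark no shared batch in the labels, and same-numbered libraries deviated together with a correlation of 0.196 over 13911 genes. With a replicate block edgeR called 786 genes (470 lower and 316 higher), 13 of the 43 (12 lower), 8 of the 18 and 0 of the 15 other regulators, and the median of the 10 genes was -0.90. Leaving out each library in turn gave 0 to 992 genes over the table, 0 to 15 of the 43, 0 to 7 of the 18 and 0 to 1 of the 15, and medians of the 10 genes from -1.21 to -0.58. The cause of these differences was not tested. Other scalings moved the median of all genes by less than 0.05. Depth limits *Car9*, with 8 to 13 reads.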

Other observations

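The 2 −dox libraries differed from each other over much of the pathway. The median log2 difference of −dox replicate 2 over −dox replicate 1 was 0.21 over the 10 genes, 0.16 over the 43 other hypoxia-induced genes, 0.10 over the 18 glycolysis and transport genes, 0.02 over the 15 other HIF regulators and 0.0 over all genes tested. It was largest in *Vegfa* (0.67), *Egln3* (0.66), *Egln1* (0.59) and *Ankrd37* (0.55) among the 10 genes, while *Ndufa4l2* (-0.04), *Hif1a* (-0.04) and *Vhl* (-0.01) stood at nearly the same level in both.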
